A study of Homo sapiens with 6 samples.

Results

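The genes of mitosis and of the G2/M transition were examined in HK-2 cells under high glucose (HG), with and without TEPP-46. A list of 57 gene symbols defined them. All 57 were among the 29483 genes in the deposited table, and all 57 reached the mean level required for testing, as did 13599 genes in total. HK-2 is a widely used human cell line from the epithelium of the renal proximal tubule, immortalised with papillomavirus genes whose products inactivate p53 and RB. Both groups were cultured in 25 mM HG for 7 days. The 3 control replicates received no TEPP-46, whereas the 3 case replicates received 10 μM TEPP-46, an activator of the glycolytic enzyme PKM2, for 1 further day with HG still present, so that a group without HG was not part of the comparison. The study calls the replicates independent and says that they were treated separately, after a shared description of the HG culture. How far they had been grown apart before TEPP-46 is not given in the sources used here, so P-values measure only the spread between these libraries. The unit is FPKM, the fragments of a gene (called reads here) divided by its length and by a total for its library. The study sequenced paired-end reads. The library totals behind the FPKM values came to 18634891, 17924033, and 17378710 reads for replicates 1, 2, and 3 of the control group. Those of the case group were lower at 16711934, 16047243, and 15363254 reads. The reads recovered over all genes summed to 18701248 in control replicate 1, so these totals lie near the reads counted on genes. They are not the sequenced depth, and the study lists more clean and mapped reads per library.

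The epithelial label was compared with marker genes. The keratins KRT7, KRT8, KRT18, and KRT19 lay between 158.0 and 407.2 FPKM in all 6 libraries, and the epithelial adhesion molecule EPCAM lay between 12.7 and 14.6 FPKM. In contrast, the transporters and brush border genes that define the proximal tubule in the kidney (AQP1, LRP2, CUBN, SLC34A1, SLC5A2, ANPEP, and GGT1) and the renal factors PAX2 and PAX8 were at most 0.206 FPKM in any library. Markers of fibroblasts, endothelial cells, and immune cells that had values were at most 0.350 FPKM, with COL1A1 the most abundant of them. The cadherin CDH2, listed with the epithelial and renal tubule markers, was not found among the genes of the deposited table. DCN, LUM, PTPRC, and CD3E were not found there either, so the levels of all these genes are unknown. E-cadherin (CDH1) was at 3.34, 3.504, and 3.400 FPKM in control replicates 1, 2, and 3 and at 1.83, 2.32, and 2.002 FPKM in the case replicates (log2(FC) = -0.64, SE 0.11, adjusted P-value = 0.0156), and its part in the results that follow was not tested.

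Cells enter mitosis when CDK1, bound to cyclin A or B, is freed of inhibitory phosphates by CDC25 phosphatases, and Polo-like and Aurora kinases then assemble the spindle. The spindle assembly checkpoint holds the anaphase-promoting complex (APC/C) inactive until every kinetochore is attached to microtubules, after which CDC20 directs the APC/C to destroy securin and cyclin B, separase opens the cohesin rings, and the cell divides. Most of these genes are transcribed together late in the cycle and are silent in resting cells, so their summed level is commonly read as a measure of proliferation.

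After TEPP-46, single mitotic genes differed in both directions, and the median of the group lay near 0. Of the 57 genes, 10 were differentially expressed (DE) genes (adjusted P-value ≤ 0.05, limma), with 7 upregulated (*UBE2C*, *CCNB2*, *CKS1B*, *AURKA*, *SKA1*, *PTTG1*, and *BIRC5*) and 3 downregulated (*TTK*, *MKI67*, and *INCENP*). This share of 17.5% compares with 13.2% of all tested genes, of which 7.34% were upregulated and 5.84% downregulated. The log2(FC) values, case minus control, were positive in 29 genes and negative in 28, ranged from -0.81 for *MKI67* to 0.61 for *SKA1*, and had a median of 0.0003, beside a median of -0.0017 over all tested genes. The scaled values of the groups did not overlap in 36 of the 57 genes (63.2%), with 19 higher and 17 lower in the case group. Over all tested genes this share was 39.9%, divided into 19.5% higher and 20.4% lower. Fold changes were taken after scaling between libraries, by factors of 1.03 to 1.04 for control replicates and 0.94 to 1.01 for case replicates, so they lie somewhat higher than the ratios of the FPKM values. FPKM values are given as deposited, for replicates 1, 2, and 3 in this order and for the control group first. In bulk RNA, a change in the number of dividing cells and a change in the RNA of each cell cannot be told apart.

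The number of calls changed with the libraries and the scaling, whereas the 10 genes called here kept their direction in every alternative tried. They were picked by P-values from the same libraries, so this is not independent support. Of all 57 genes, 43 kept their direction with TPM, 50 without case replicate 1, and 51 to 57 in each other setting. When any 1 control replicate, or else case replicate 3, was left out, 0 of the 57 genes were DE genes by limma, although 17 to 21 of them had an unadjusted P-value below 0.05 (33.1% of all tested genes in the full data, 28 of the 57 members), and the DE genes over all tested genes fell from 1792 to between 69 and 192. Without case replicate 1 the members called were 15 (10 upregulated and 5 downregulated), 8 of the 10 among them, while DE genes over all tested genes rose to 2296 (16.8%). Without case replicate 2 they were 20 (11 and 9), with all 10 among them, and DE genes over all tested genes rose to 3495 (25.7%). The split into 7 upregulated and 3 downregulated became 4 and 5 with FPKM as deposited, 4 and 6 after quantile normalization, and 2 and 15 with TPM, which moved the median of all tested genes to -0.19. The split over all tested genes, 998 upregulated and 794 downregulated, became 662 and 1124, 873 and 895, and 383 and 2387 with the same settings. With TPM, the median of the 57 genes was -0.20, level with that shift. The lowest log2(FC) over all alternatives was 0.20 for *UBE2C* and 0.24 for *CKS1B*, both after quantile normalization, and 0.17 for *CCNB2*, 0.13 for *AURKA*, 0.26 for *PTTG1*, and 0.13 for *BIRC5*, all with TPM. Of 11 other settings run on all 6 libraries without length or GC correction, *TTK* and *UBE2C* were called in 10, *CCNB2*, *CKS1B*, *INCENP*, and *MKI67* in 9, *AURKA* in 8, *SKA1* in 7, *PTTG1* in 6, and *BIRC5* in 5.

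**Figure D1:**
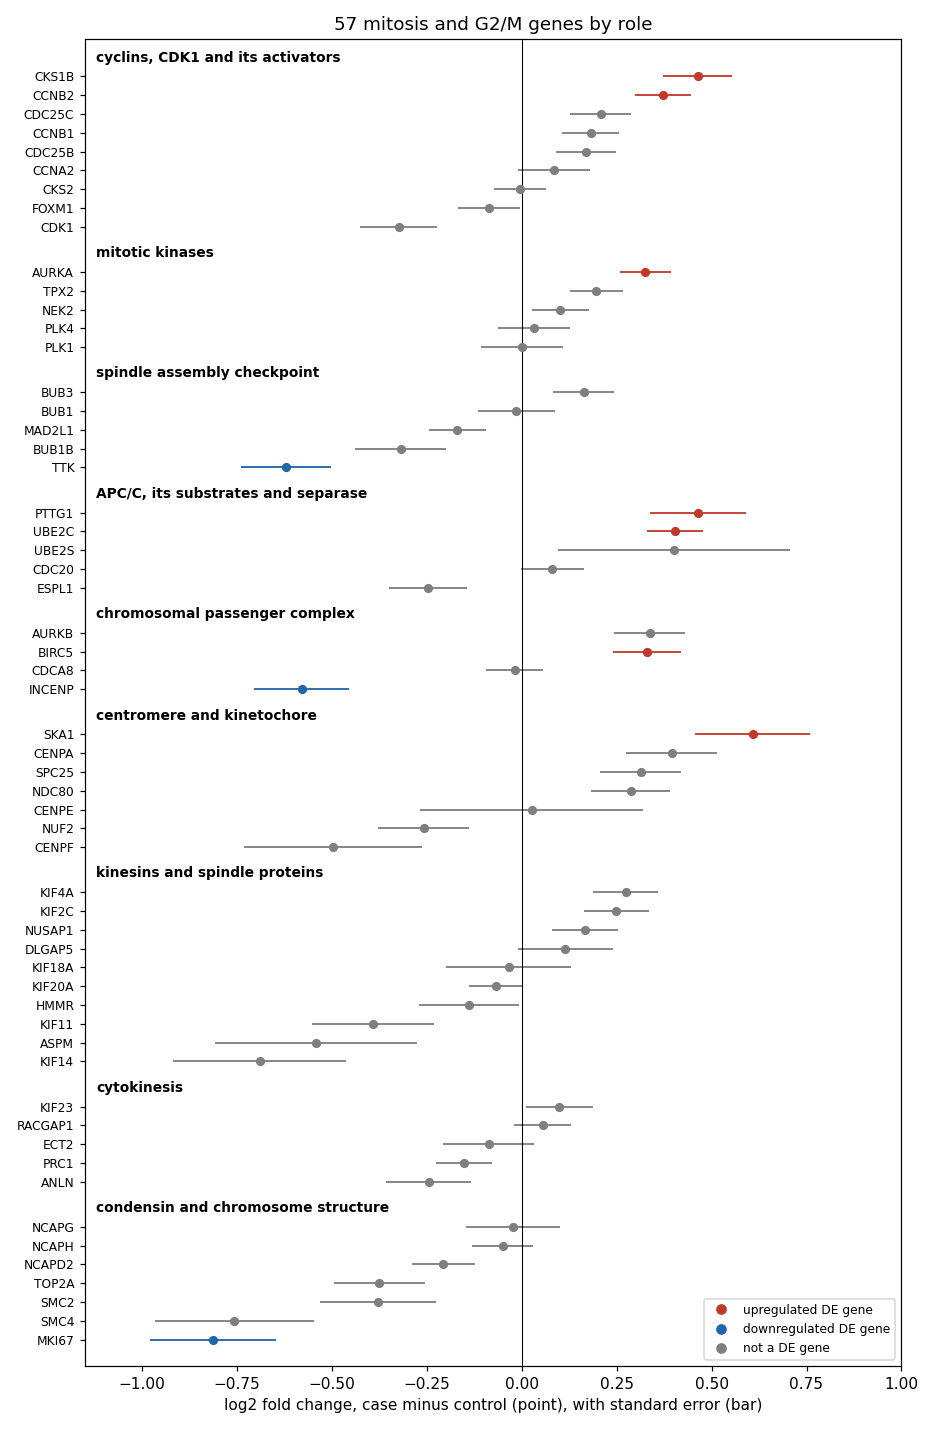
Log2(FC) of the 57 genes, case minus control, with the point as the limma estimate from 3 against 3 replicates and the bar as its standard error, grouped by role. The 7 upregulated DE genes are red, the 3 downregulated ones blue, and the condensin and chromosome structure genes all lie left of 0.

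The regulatory sequence before 7 of these genes is shown because late cell cycle genes share known promoter elements. The cell cycle genes homology region (CHR), with the letters TTTGAA or TTCGAA, is bound by the DREAM and MuvB complexes, and CCAAT boxes are bound by NF-Y. RefSeq promoters (GRCh38.p14), from 250 bases before to 50 bases after the start, were matched for 49 of the 57 genes and searched on both strands for both forms of the CHR and for the CCAAT box. TTTGAA was found in 36 of the 49 promoters (73.5%) and in 15.4% of all 27305 promoters of the same length. TTCGAA, which reads the same on both strands, was found in 2 (4.08%), beside 1.45% of all promoters. CCAAT was found in 36 (73.5%), beside 35.7% of all, and at least 2 copies were found in 44.9%, beside 11.3% of all. The 250 bases before the start follow, 5′ to 3′ on the strand of the gene, with matches in capitals. On the opposite strand, TTTGAA reads TTCAAA and CCAAT reads ATTGG.
*CCNB2* (chr15:59104896-59105145, plus strand): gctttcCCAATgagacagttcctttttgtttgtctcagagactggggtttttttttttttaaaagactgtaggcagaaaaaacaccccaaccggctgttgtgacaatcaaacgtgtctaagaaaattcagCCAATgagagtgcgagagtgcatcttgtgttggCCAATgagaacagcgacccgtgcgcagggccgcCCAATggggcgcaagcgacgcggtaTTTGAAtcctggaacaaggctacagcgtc
*CKS1B* (chr1:154974431-154974680, plus strand): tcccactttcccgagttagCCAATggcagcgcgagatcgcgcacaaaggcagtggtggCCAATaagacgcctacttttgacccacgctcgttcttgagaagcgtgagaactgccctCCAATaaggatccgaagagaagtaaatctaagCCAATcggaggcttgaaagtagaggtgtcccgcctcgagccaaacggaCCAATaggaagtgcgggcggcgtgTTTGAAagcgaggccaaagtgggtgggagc
*SKA1* (chr18:50374796-50375045, plus strand): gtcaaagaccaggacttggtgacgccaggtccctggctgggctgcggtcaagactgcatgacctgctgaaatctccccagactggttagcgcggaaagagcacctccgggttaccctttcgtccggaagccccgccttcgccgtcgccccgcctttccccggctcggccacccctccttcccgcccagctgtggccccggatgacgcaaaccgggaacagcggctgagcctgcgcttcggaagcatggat
*MKI67* (chr10:128126424-128126673, minus strand): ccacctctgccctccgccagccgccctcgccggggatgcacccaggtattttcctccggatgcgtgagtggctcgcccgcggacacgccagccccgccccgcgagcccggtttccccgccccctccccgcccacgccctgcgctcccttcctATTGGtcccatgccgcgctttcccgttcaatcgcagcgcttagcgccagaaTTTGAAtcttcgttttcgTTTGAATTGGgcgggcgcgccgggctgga
*INCENP* (chr11:62123761-62124010, plus strand): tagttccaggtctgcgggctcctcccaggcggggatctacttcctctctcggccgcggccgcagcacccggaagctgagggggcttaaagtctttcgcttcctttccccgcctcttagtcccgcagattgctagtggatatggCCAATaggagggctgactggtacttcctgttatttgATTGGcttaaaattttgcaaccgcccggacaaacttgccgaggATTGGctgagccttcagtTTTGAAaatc
*CDK1* (chr10:60778081-60778330, plus strand): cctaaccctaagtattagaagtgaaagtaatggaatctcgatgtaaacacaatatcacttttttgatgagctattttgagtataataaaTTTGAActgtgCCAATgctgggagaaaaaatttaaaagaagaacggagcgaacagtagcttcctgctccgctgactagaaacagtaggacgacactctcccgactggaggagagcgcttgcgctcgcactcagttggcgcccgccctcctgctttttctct
*CCNB1* (chr5:69166900-69167149, plus strand): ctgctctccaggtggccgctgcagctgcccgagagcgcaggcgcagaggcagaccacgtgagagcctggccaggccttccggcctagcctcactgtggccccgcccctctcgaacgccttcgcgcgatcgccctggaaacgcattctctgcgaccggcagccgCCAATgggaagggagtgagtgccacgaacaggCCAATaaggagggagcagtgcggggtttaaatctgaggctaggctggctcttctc

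Genes called in both directions carried these letters. The upregulated *CCNB2* had TTTGAA beginning 29 bases before the start and 4 CCAAT boxes further upstream. *CKS1B* had TTTGAA 30 bases before the start and 5 CCAAT boxes. The downregulated *MKI67* had TTTGAA at 47 and at 29 bases before the start, the second of which shares 1 base with an ATTGG. In the promoter of *INCENP*, TTTGAA lay 10 bases before the start and the CCAAT letters occurred 3 times. *SKA1* held TTTGAA only downstream, 35 bases after the start and outside the stretch shown. *CDK1* held TTTGAA and CCAAT close together, 161 and 150 bases before the start, and *CCNB1* held 2 CCAAT boxes and no TTTGAA or TTCGAA. A match is a description of letters, and no binding was measured.

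Among the cyclins, CDK1, and its activators, 2 of 9 genes were upregulated (22.2%, beside 7.34% of all tested genes) and none was downregulated. Their median log2(FC) was 0.17, which turned to -0.02 after quantile normalization and to -0.03 with TPM. *CCNB2* (ENSG00000157456, chr15:59105126-59125045), 1 of the B-type cyclins that activate CDK1, was at 39.9, 40.8, and 39.9 FPKM in control replicates 1, 2, and 3 and at 48.5, 48.1, and 51.8 FPKM in case replicates 1, 2, and 3. Every case replicate was above every control replicate, and the log2(FC) was 0.37 (SE 0.07, adjusted P-value = 0.0214). *CKS1B* (ENSG00000173207, chr1:154974653-154979251), whose small product binds cyclin-dependent kinases, was at 128.7, 114.7, and 120.3 FPKM in the control group and at 164.5, 147.5, and 163.4 FPKM in the case group. The groups were again apart, with a log2(FC) of 0.46 (SE 0.09, adjusted P-value = 0.0221). Its paralog *CKS2* had the highest mean FPKM of the 57 genes in each group, although *UBE2S* exceeded it in case replicate 1. *CKS2* was at 307.2, 321.5, and 316.1 FPKM and at 279.1, 312.1, and 302.8 FPKM, with a log2(FC) of -0.0039 (SE 0.07, adjusted P-value = 0.975) and overlapping scaled values.

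*CDK1* itself pointed the other way without passing the threshold. Its level was 57.4, 68.03, and 66.6 FPKM in control replicates 1, 2, and 3 and 42.1, 50.6, and 52.9 FPKM in case replicates 1, 2, and 3. All case replicates lay below all control replicates, and the log2(FC) was -0.32 (SE 0.10, adjusted P-value = 0.0676). It was a downregulated DE gene in 5 of the same 11 settings, namely FPKM as deposited, quantile normalization, TPM, the replicate block, and voom. *CCNB1*, the main partner of CDK1 at mitotic entry, was at 114.9, 123.9, and 127.2 FPKM in the control group and at 129.7, 128.8, and 134.6 FPKM in the case group (log2(FC) = 0.18, SE 0.08, adjusted P-value = 0.138). The groups were narrowly apart, and the direction turned under quantile normalization and TPM. *CCNA2*, the cyclin of S phase and G2, was at 36.3, 34.6, and 32.1 FPKM and at 32.2, 39.7, and 32.1 FPKM, with overlapping groups (log2(FC) = 0.09, SE 0.10, adjusted P-value = 0.569). *FOXM1*, the transcription factor that drives many of these genes, was at 23.1, 24.5, and 23.8 FPKM and at 21.9, 22.2, and 19.8 FPKM (log2(FC) = -0.09, SE 0.08, adjusted P-value = 0.503), and its scaled values overlapped. The phosphatases *CDC25B* and *CDC25C* had log2(FC) values of 0.17 and 0.21, each with an adjusted P-value of at least 0.118.

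Among the mitotic kinases and TPX2, 1 of 5 genes was upregulated (20%, beside 7.34% of all tested genes). *AURKA* (ENSG00000087586, chr20:56369389-56392337), the kinase of centrosomes and spindle poles, was at 63.4, 62.04, and 63.1 FPKM in the control replicates and at 71.4, 76.7, and 76.2 FPKM in the case replicates. The 3 control values were nearly equal and below all case values, with a log2(FC) of 0.33 (SE 0.07, adjusted P-value = 0.0228). *TPX2*, which activates AURKA on the spindle, had a log2(FC) of 0.20 (SE 0.07, adjusted P-value = 0.0944). *PLK1*, the Polo-like kinase of mitotic entry, was at 39.02, 38.2, and 37.9 FPKM in the control group and at 41.3, 35.2, and 33.2 FPKM in the case group. Its groups overlapped, and the log2(FC) was 0.0003 (adjusted P-value = 0.998) with a 95% interval from -0.25 to 0.25. The centrosome kinases *NEK2* and *PLK4* had log2(FC) values of 0.10 and 0.03, neither a DE gene. The median of the 5 genes was 0.10, and it was -0.10 with TPM.

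Among the spindle assembly checkpoint genes, 1 of 5 was downregulated (20%, beside 5.84% of all tested genes). *TTK* (ENSG00000112742, chr6:80003887-80042527), the kinase MPS1 that starts the checkpoint at unattached kinetochores, was at 18.2, 19.2, and 19.8 FPKM in control replicates 1, 2, and 3 and at 9.45, 13.6, and 12.6 FPKM in case replicates 1, 2, and 3. Every case replicate was below every control replicate, most so replicate 1, and the log2(FC) was -0.62 (SE 0.12, adjusted P-value = 0.02). *BUB1*, the kinase that recruits other checkpoint proteins, was at 21.6, 22.7, and 21.4 FPKM and at 17.4, 23.6, and 21.2 FPKM. Its groups overlapped, with case replicate 1 the lowest of all, and the log2(FC) was -0.01 (SE 0.10, adjusted P-value = 0.939). *BUB1B* and *MAD2L1*, both parts of the complex that inhibits the APC/C, had log2(FC) values of -0.32 and -0.17, and *BUB3*, a partner of BUB1, had 0.16. None of these 3 passed the threshold. Their scaled groups did not overlap, which held for 39.9% of all tested genes. The direction of *BUB3* turned with TPM.

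The genes of the APC/C, its substrates, and separase included 2 upregulated genes of 5 (40%, beside 7.34% of all tested genes). *UBE2C* (ENSG00000175063, chr20:45812576-45816957), the ubiquitin-conjugating enzyme that starts chains on APC/C substrates, had the smallest P-value of the 57 genes. It was at 119.6, 122.8, and 118.8 FPKM in the control group and at 152.1, 146.7, and 154.5 FPKM in the case group. The case replicates were all higher than the control replicates, with a log2(FC) of 0.40 (SE 0.07, adjusted P-value = 0.0179), and 2654 to 3268 reads stood behind each value. *PTTG1* (ENSG00000164611, chr5:160421855-160428739), which encodes securin, the inhibitor of separase that the APC/C destroys at anaphase, was at 62.01, 61.2, and 64.00 FPKM and at 84.3, 68.5, and 94.03 FPKM. Case replicate 2 was only slightly above the control group, and the log2(FC) was 0.46 (SE 0.13, adjusted P-value = 0.0485). It was not a DE gene with FPKM as deposited, quantile normalization, TPM, no filter, or no intensity trend, nor without case replicate 1. *CDC20*, the activator of the APC/C in mitosis, was at 243.1, 232.8, and 227.9 FPKM in the control group and at 244.7, 223.7, and 237.3 FPKM in the case group. These groups overlapped (log2(FC) = 0.08, SE 0.08, adjusted P-value = 0.537), and the direction turned under quantile normalization, TPM, and length correction. *ESPL1*, which encodes separase, had a log2(FC) of -0.25 (SE 0.10, adjusted P-value = 0.138), with the case replicates all lower. *UBE2S*, the enzyme that extends the chains, varied within both groups, at 166.3, 150.5, and 282.6 FPKM and at 358.9, 189.97, and 203.5 FPKM, and its log2(FC) was 0.40 (SE 0.31, adjusted P-value = 0.394). That value was 0.09 without case replicate 1 and at most 0.68 over the alternatives. *UBE2C*, *UBE2S*, *PTTG1*, and *CKS1B* have near-identical copies elsewhere in the genome, so reads may have been divided among copies, and their levels are uncertain to that extent.

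**Figure D2:**
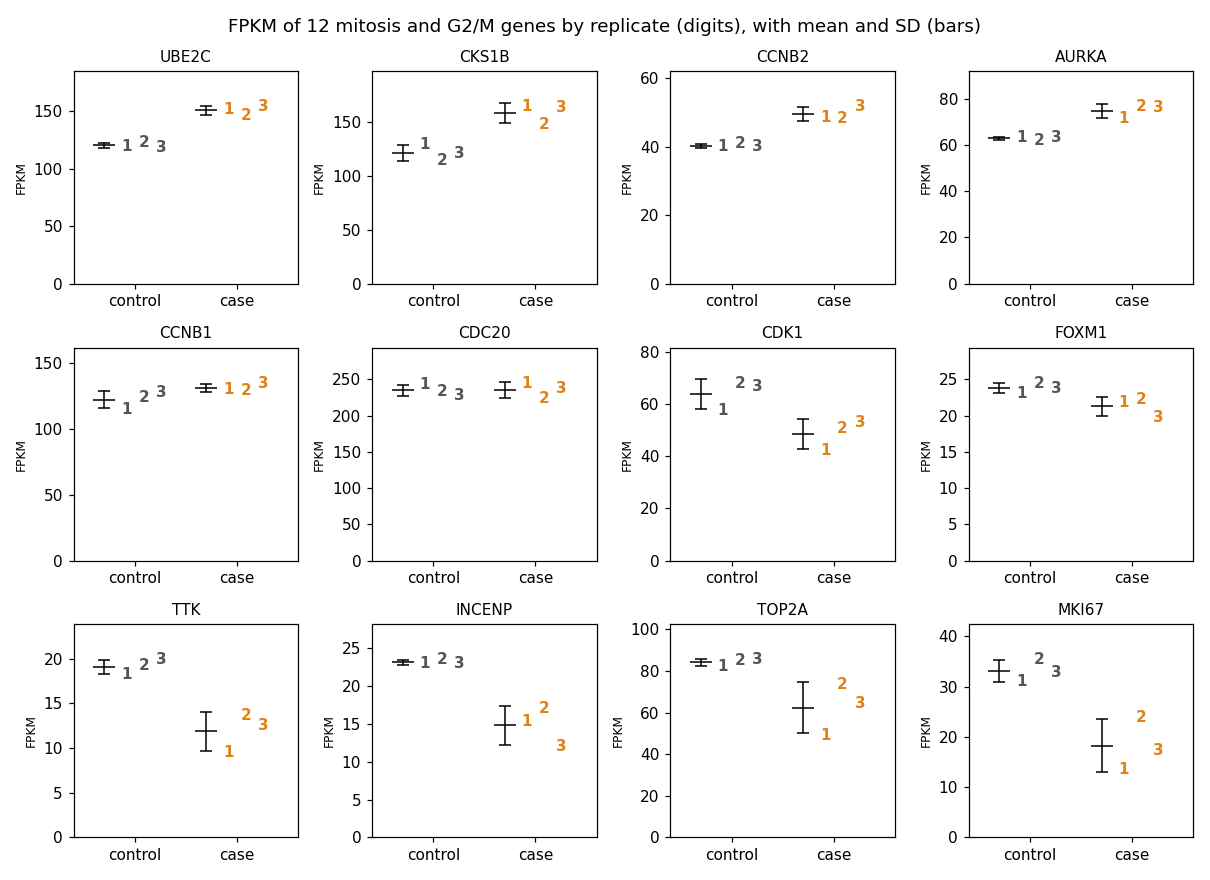
FPKM as deposited for 12 genes, with each digit marking a replicate of the control group (grey) or case group (orange) and the line and bars giving the mean and SD over 3 replicates. The case replicates of UBE2C, CKS1B, CCNB2, AURKA, and CCNB1 lie above the control replicates, those of CDK1, FOXM1, TTK, INCENP, TOP2A, and MKI67 lie below, and those of CDC20 overlap with them.

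The chromosomal passenger complex, which corrects wrong attachments of kinetochores, held genes of opposite direction. *BIRC5* (ENSG00000089685, chr17:78214186-78225636), which encodes survivin, was at 82.5, 82.7, and 85.9 FPKM in the control replicates and at 105.3, 91.8, and 102.6 FPKM in the case replicates. The groups did not overlap, and the log2(FC) was 0.33 (SE 0.09, adjusted P-value = 0.0495). It was not a DE gene with the 5 settings named for *PTTG1*, with the replicate block, or without case replicate 1. Conversely, *INCENP* (ENSG00000149503, chr11:62123998-62153169), the scaffold of the complex, was at 22.9, 23.4, and 22.9 FPKM in the control group and at 15.3, 17.02, and 11.99 FPKM in the case group. The control values were nearly equal, all case values were lower, and the log2(FC) was -0.58 (SE 0.12, adjusted P-value = 0.0261). The kinase of the complex, *AURKB*, fell just outside the threshold. It was at 67.4, 58.8, and 66.1 FPKM and at 80.7, 72.9, and 76.6 FPKM, with no overlap between the groups and a log2(FC) of 0.34 (SE 0.09, adjusted P-value = 0.0505). It was an upregulated DE gene in 5 of the same 11 settings, after GC correction, and without case replicate 2. *CDCA8*, which encodes borealin, had a log2(FC) of -0.02 (SE 0.07, adjusted P-value = 0.882). The complex therefore counted 1 upregulated, 1 downregulated, and 2 other genes (25% each way, beside 7.34% and 5.84% of all tested genes). With FPKM as deposited, quantile normalization, or TPM it counted 0 upregulated and 1 downregulated. No gene of the complex was called without a filter or without the intensity trend.

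Of the 7 centromere and kinetochore genes, 1 was upregulated (14.3%, beside 7.34% of all tested genes) and none downregulated. Their median log2(FC) was 0.29, which was 0.17 after quantile normalization and 0.19 without case replicate 3. With TPM it was 0.09, and *NUF2* was downregulated and no gene upregulated. *SKA1* (ENSG00000154839, chr18:50375040-50394168), part of a complex that couples kinetochores to shortening microtubules, was at 6.68, 9.29, and 8.37 FPKM in control replicates 1, 2, and 3 and at 9.899, 11.5, and 13.97 FPKM in case replicates 1, 2, and 3. All case replicates exceeded all control replicates, with a log2(FC) of 0.61 (SE 0.15, adjusted P-value = 0.0389), from 367 to 633 reads per library. *CENPA*, the histone variant that marks centromeres, was at 21.9, 21.6, and 26.8 FPKM and at 31.6, 26.4, and 29.7 FPKM. In FPKM, case replicate 2 was below control replicate 3, whereas the scaled values did not overlap, and the log2(FC) was 0.40 (SE 0.12, adjusted P-value = 0.0648). The NDC80 complex, the main microtubule anchor of the kinetochore, was uneven, with log2(FC) values of 0.29 for *NDC80*, 0.31 for *SPC25*, and -0.26 for *NUF2*, none of them a DE gene. The large kinetochore genes *CENPE* and *CENPF* diverged between the case replicates. *CENPE*, a kinesin, was at 5.38, 5.42, and 5.79 FPKM in the control group and at 2.93, 7.76, and 6.66 FPKM in the case group, with case replicate 1 lowest and the other two highest of the 6 libraries. *CENPF* was at 13.2, 14.4, and 13.7 FPKM and at 5.73, 12.2, and 11.1 FPKM, with a log2(FC) of -0.50 (SE 0.23, adjusted P-value = 0.178). That value was -0.18 without case replicate 1.

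No kinesin or spindle protein gene and no cytokinesis gene was a DE gene, in 10 and 5 genes tested. At an unadjusted P-value below 0.05 they numbered 4 of the 10 and 0 of the 5, beside 33.1% of all tested genes. Voom on whole reads called *KIF14*, TPM called *KIF14*, *KIF20A*, and *PRC1*, and GC correction called *KIF11*, *KIF14*, and *ANLN*. Without case replicate 1 the calls were *KIF14*, *NUSAP1*, and *DLGAP5*, and without case replicate 2 they were *KIF11*, *KIF14*, *KIF2C*, and *KIF4A*. The median log2(FC) of the kinesins and spindle proteins was -0.05 and that of the cytokinesis genes -0.09, and these became 0.09 and 0.05 without case replicate 1. They were -0.25 and -0.29 with TPM, -0.13 and -0.16 with FPKM as deposited, and -0.09 and -0.20 after quantile normalization. *KIF11*, the motor that pushes spindle poles apart, was at 19.95, 21.5, and 20.9 FPKM in the control replicates and at 10.9, 18.8, and 16.4 FPKM in the case replicates. All case values were lower, case replicate 1 by far the most, and the log2(FC) was -0.39 (SE 0.16, adjusted P-value = 0.135). That value was -0.19 without case replicate 1. *KIF14*, a motor of the midzone, was at 5.82, 6.03, and 5.96 FPKM in the control replicates and at 2.17, 4.68, and 4.03 FPKM in the case replicates, with case replicate 1 the lowest by far. It had the most negative value of these genes (log2(FC) = -0.69, SE 0.23, adjusted P-value = 0.0809), which was -0.39 without case replicate 1. *KIF4A*, a chromosome-bound motor, had the most positive (log2(FC) = 0.27, SE 0.09, adjusted P-value = 0.0684). *KIF2C*, which depolymerizes microtubules, had a log2(FC) of 0.25 (SE 0.09, adjusted P-value = 0.0883). *ASPM*, a spindle pole protein, was at 7.57, 8.28, and 7.92 FPKM and at 2.98, 7.14, and 6.296 FPKM, with case replicate 1 far below the other libraries. Its log2(FC) was -0.54 (SE 0.27, adjusted P-value = 0.193), and -0.18 without case replicate 1. *KIF18A*, *KIF20A*, *NUSAP1*, *HMMR*, and *DLGAP5* lay between -0.14 and 0.17. Among the cytokinesis genes, the log2(FC) was -0.24 for *ANLN* (anillin), -0.15 for *PRC1* (the bundler of midzone microtubules), -0.09 for *ECT2*, 0.06 for *RACGAP1*, and 0.10 for *KIF23*. The value for *ANLN* was -0.12 without case replicate 1.

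The condensin and chromosome structure genes all had negative values, 7 of 7, here and with FPKM as deposited, quantile normalization, and TPM. Of them, 1 was a DE gene (14.3%, beside 13.2% of all tested genes). The negative values were 6 of 7 after length correction, after GC correction, without case replicate 1, and without control replicate 2, and 0 to 5 of the 7 genes were called over all alternatives, the 5 after GC correction, where 23.9% of all tested genes were called. Their median log2(FC) was -0.37, or -0.24 without case replicate 1, and scaled values were apart and lower in the case group for 5 of them, beside 20.4% of all tested genes. *MKI67* (ENSG00000148773, chr10:128096659-128126423), which encodes the proliferation marker Ki-67 that coats mitotic chromosomes, was at 30.97, 35.3, and 32.9 FPKM in control replicates 1, 2, and 3 and at 13.6, 23.9, and 17.3 FPKM in case replicates 1, 2, and 3. The groups were well apart, and the log2(FC) was -0.81 (SE 0.17, adjusted P-value = 0.0231), the most negative of the 57 genes. After correction for gene length, its log2(FC) was -0.53 and those of *TTK*, *SMC4*, *INCENP*, and *KIF14* were more negative. *SMC4*, a core subunit of condensin, was just outside the threshold, at 19.8, 19.8, and 20.3 FPKM and at 7.48, 15.6, and 11.9 FPKM (log2(FC) = -0.76, SE 0.21, adjusted P-value = 0.0507). It was a DE gene in 6 of the same 11 settings, among them quantile normalization, TPM, and voom, and after GC correction. Without case replicate 1 its log2(FC) was -0.49. Its partner *SMC2* was at 17.02, 17.8, and 17.1 FPKM in the control group and at 9.36, 15.5, and 13.7 FPKM in the case group, with a log2(FC) of -0.38 (SE 0.15, adjusted P-value = 0.128). That value was -0.19 without case replicate 1. The condensin I subunit *NCAPD2* was at 49.2, 50.8, and 48.4 FPKM and at 42.00, 42.7, and 37.3 FPKM. All its case values were lower, with a log2(FC) of -0.21 (SE 0.08, adjusted P-value = 0.127). *TOP2A*, the topoisomerase that untangles sister chromatids, was at 82.2, 85.1, and 85.3 FPKM and at 49.1, 73.6, and 64.4 FPKM, again without overlap and with a log2(FC) of -0.37 (SE 0.12, adjusted P-value = 0.075). That value was -0.235 without case replicate 1. The other 2 condensin I subunits, *NCAPG* and *NCAPH*, had log2(FC) values of -0.02 and -0.05 and overlapping groups.

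The direction of a gene went with its length. Across the 57 genes, which share the same 6 libraries and are not independent, Spearman's rho between log2(FC) and the counted gene length was -0.71, beside -0.36 across the 13599 tested genes. The 19 shortest members, from 613 to 3362 bases, included 6 upregulated and no downregulated genes, with a median log2(FC) of 0.31, where all tested genes of these lengths had 0.15. The 19 of middle length, from 3600 to 4899 bases, had a median of 0.0003 and included 1 upregulated and 2 downregulated genes. The 19 longest, from 4921 to 12807 bases, included only *MKI67* as a DE gene and had a median of -0.21, beside -0.12 for all tested genes of these lengths. Over all tested genes of any length, 7.34% were upregulated and 5.84% downregulated. The share called within each range of lengths is not given here, so the counts have no baseline of their own length. *MKI67* was the longest of the 57, and *UBE2C* the shortest after *CKS2*. With GC content of the longest transcript, rho was 0.37 across the members and 0.05 across 13489 tested genes with a GC value. By library, rho between the distance of the members from their control means and length was -0.73, -0.52, and -0.62 in case replicates 1, 2, and 3, and that with GC content was 0.58, 0.03, and 0.14.

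**Figure D3:**
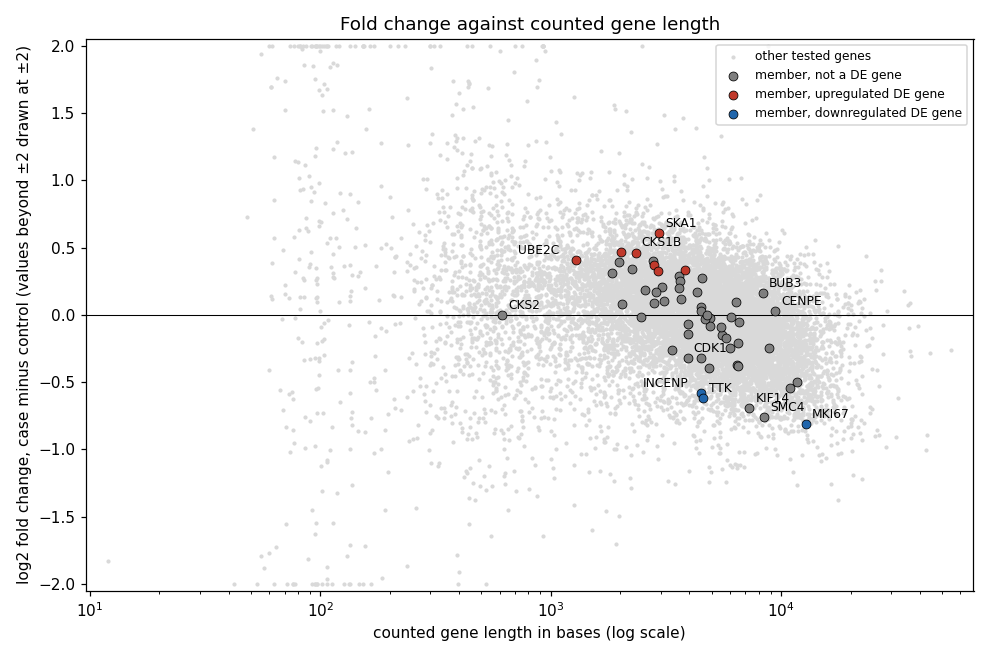
Log2(FC), case minus control, against the gene length recovered from the FPKM values in bases (log scale) for 13599 tested genes (pale grey) and the 57 members (dark grey, red, and blue), with values beyond ±2 drawn at ±2. The upregulated members lie among the shorter ones, and the longest member, MKI67, has the lowest value of the 57.

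After a curve against gene length was removed from each library, 7 members were DE genes, 4 upregulated and 3 downregulated, of 1499 DE genes over all tested genes. *CCNB2*, *CKS1B*, *UBE2C*, *TTK*, *INCENP*, and *MKI67* were 6 of the 10 called before, and *BUB3* was added. Of the 6, *UBE2C* moved from 0.40 to 0.23 (adjusted P-value = 0.049) and *MKI67* from -0.81 to -0.53 (adjusted P-value = 0.0252), while *TTK* stayed at -0.62. *AURKA*, *PTTG1*, *BIRC5*, and *SKA1* had log2(FC) values of 0.21, 0.31, 0.28, and 0.50 with adjusted P-values of 0.0662, 0.074, 0.0582, and 0.077. The same removal against GC content gave 12 upregulated and 11 downregulated members, of 3244 DE genes in all.

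The case replicates did not carry these differences equally. The 19 longest members lay at a median of -0.36, -0.12, and -0.22 from their control means (log2) in case replicates 1, 2, and 3, whereas the 19 shortest lay at 0.31, 0.19, and 0.21. In the 3 control replicates both medians stayed between -0.02 and 0.04. The 7 upregulated genes had medians of 0.46, 0.32, and 0.43 in the case replicates, and the 3 downregulated genes had -0.88, -0.43, and -0.86, so that replicate 2 was nearest to the control group for both. Between control replicates the members had a median SD of 0.05 (log2), and between case replicates one of 0.15, where all tested genes had 0.09 and 0.19. In total, the 57 genes held 0.916%, 0.942%, and 0.960% of the FPKM sum of control replicates 1, 2, and 3 and 0.871%, 0.907%, and 0.880% of that of the case replicates. Their own FPKM sums overlapped, at 2692, 2726, and 2837 for control and 2819, 2814, and 2842 for case replicates, and the sum over all genes was higher in each case replicate (310111 to 323755) than in each control replicate (289245 to 295418).

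**Figure D4:**
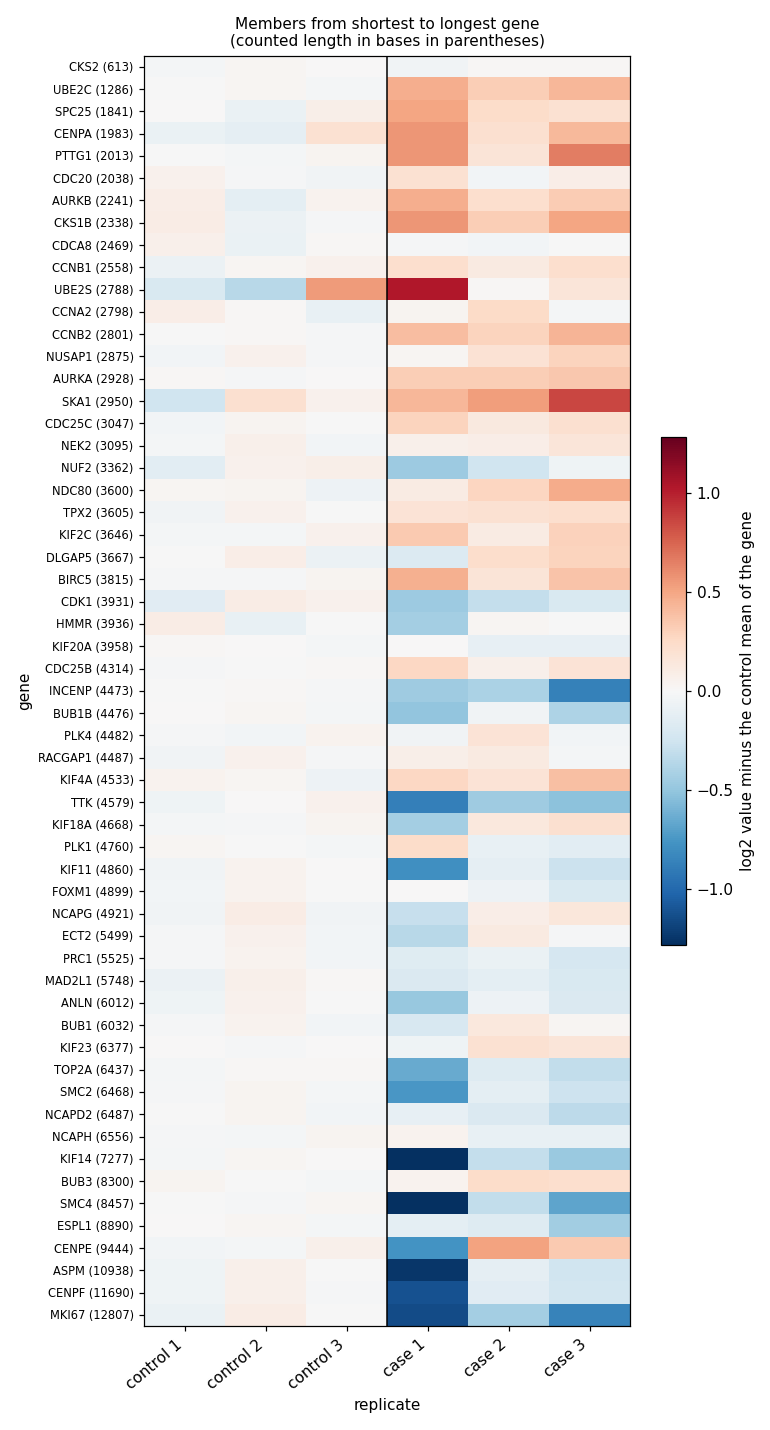
Log2 value of each of the 57 genes minus its control mean (colour) in the 6 libraries (columns), with genes ordered from the shortest to the longest counted length in bases. Case replicate 1 shows the lowest values among the longest genes, with the 19 longest at a median of -0.36, and case replicate 2 the palest colours.

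Genes that work beside the 57 were examined through lists of the remaining machinery. Of 16 core subunits and inhibitors of the APC/C, 2 were upregulated and 1 downregulated (18.8%, beside 13.2% of all tested genes), with a median log2(FC) of 0.11. The subunit *ANAPC16* was at 11.3, 11.99, and 11.5 FPKM in the control group and at 14.99, 13.8, and 17.7 FPKM in the case group (log2(FC) = 0.48, SE 0.11, adjusted P-value = 0.0285). *CDC16*, part of the arch of the complex, had a log2(FC) of 0.44 (SE 0.10, adjusted P-value = 0.0309), and *ANAPC1*, its largest subunit, was lower, with a log2(FC) of -0.51 (SE 0.14, adjusted P-value = 0.0459). Of 29 further kinetochore and centromere genes tested, 4 were upregulated and 1 downregulated (17.2%, beside the same 13.2%), with a median of 0.08. *HJURP*, the chaperone that deposits CENPA, was at 18.9, 20.4, and 18.00 FPKM and at 22.7, 25.1, and 24.7 FPKM (log2(FC) = 0.41, SE 0.08, adjusted P-value = 0.0204). *PMF1* and *CENPL*, both kinetochore subunits, rose by 0.55 and 0.37 on the log2 scale, and *CENPQ*, an inner kinetochore subunit, fell to 9.67, 13.1, and 11.5 FPKM from 16.4, 20.2, and 20.3 FPKM (log2(FC) = -0.66, SE 0.12, adjusted P-value = 0.0184).

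The cohesin and condensin II genes also had mostly negative values. Of 18 tested, 15 had negative values, beside 6829 of all 13599 tested genes. In this list 1 gene was upregulated and 2 were downregulated (16.7%, beside 13.2% of all tested genes). The median log2(FC) was -0.27 and the median counted length 7563 bases. All tested genes from 4921 to 12807 bases had a median log2(FC) of -0.12. *SMC1A*, a core subunit of cohesin, was at 12.2, 13.4, and 12.6 FPKM in the control replicates and at 7.59, 10.4, and 7.55 FPKM in the case replicates (log2(FC) = -0.51, SE 0.12, adjusted P-value = 0.0332). The condensin II subunit *NCAPD3* had a log2(FC) of -0.40 (SE 0.09, adjusted P-value = 0.0277). *CDCA5*, which encodes sororin, the protector of cohesin, was the upregulated gene (log2(FC) = 0.39, SE 0.08, adjusted P-value = 0.0232). Among 25 further spindle, midzone, and midbody genes, none was upregulated and 2 were downregulated (8%, beside 5.84% of all tested genes downregulated), citron kinase (*CIT*, log2(FC) = -0.55, SE 0.13, adjusted P-value = 0.0322) and the centrosome scaffold pericentrin (*PCNT*, log2(FC) = -0.47, SE 0.11, adjusted P-value = 0.0355).

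The list of brakes on CDK1 and of the G2 checkpoint had the highest share of DE genes of these lists. It also holds *MASTL*, *ENSA*, *ARPP19*, and *BORA*, which are not brakes, and none of them was a DE gene. Of 17 genes, 4 were upregulated and 1 was downregulated, or 29.4% beside 13.2% of all tested genes. *GADD45A*, a p53 target that restrains CDK1 with cyclin B, was at 23.9, 21.4, and 25.8 FPKM in the control group and at 43.8, 47.9, and 46.9 FPKM in the case group (log2(FC) = 1.04, SE 0.09, adjusted P-value = 0.00197), and the CDK inhibitor *CDKN1A* was at 40.9, 38.4, and 39.98 FPKM and at 64.2, 58.7, and 55.9 FPKM (log2(FC) = 0.66, SE 0.09, adjusted P-value = 0.0101). The related *GADD45B* rose by 0.95. The checkpoint kinase *ATR* fell to 1.56, 2.58, and 2.11 FPKM from 3.49, 3.75, and 3.44 FPKM (log2(FC) = -0.70, SE 0.16, adjusted P-value = 0.0299), whereas *CHEK1*, the checkpoint kinase that ATR activates, was upregulated, at 9.74, 9.34, and 9.29 FPKM in the control group and at 10.3, 11.7, and 12.2 FPKM in the case replicates (log2(FC) = 0.34, SE 0.08, adjusted P-value = 0.0381). *CHEK1* was named after its values were seen. DREAM, MuvB, and E2F regulators control the transcription of cell cycle genes. Of 20 tested, none was upregulated and 1 was downregulated (5%, beside 13.2% of all tested genes called in either direction). This was the pocket protein p130 (*RBL2*), at 5.18, 5.37, and 4.88 FPKM in the control group. It was at 2.51, 3.51, and 3.13 FPKM in the case group (log2(FC) = -0.67, SE 0.12, adjusted P-value = 0.0168).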

How the data were processed

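RNA of 3 control and 3 case replicates was sequenced. According to the submitters' processing notes and the study's methods, the authors aligned filtered reads with HISAT2 2.1.0 to GRCh38.p13, counted them on genes with HTSeq 0.6.0, and deposited FPKM values of 29483 genes. Strandedness, the selection of RNA, and the annotation version are not given in the sources used here, so reads of a gene and of an antisense partner cannot be told apart. The authors tested counts with DESeq2. Here, FPKM values and not counts were analysed, so limma on log2 FPKM was the main test and voom on recovered whole reads an alternative.

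GENCODE annotation of GRCh38 gave symbols and positions for 29063 genes through their Ensembl identifiers. A median-of-ratios factor per library, from the tested genes, was taken out of the FPKM values, and log2 was taken after 0.1 was added. A mean FPKM of 0.5 or more was required, which left 13599 genes for the test in R 4.3.3 with limma 3.58.1 (intensity trend, no covariates), with Benjamini-Hochberg adjustment over all of them and a threshold of 0.05. Fold changes of low genes are understated by the added 0.1. Whole reads were recovered from the FPKM values, which are whole multiples of the value of 1 read. All 27922 genes above 0 came out whole within 0.02 reads, and at the library totals found, 99.1% of a sample of well covered genes had a whole gene length within 0.05 bases, which also gave the counted gene length. The reads of 1979 genes were multiplied by a whole number, so that the length met the exon length or became whole, and 74.8% of the genes above 0 had a length within 5% of the exon length. Reads carry no molecular identifiers. limma and the recovery were tested on simulated data.

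The 57 genes, their roles, and all other lists were chosen with earlier results of these data known, so no list is independent support. Values in every library are given for the DE genes among the 57 and for CDK1, CCNB1, CCNA2, PLK1, AURKA, AURKB, CDC20, FOXM1, MKI67, TOP2A, BUB1, CENPA, KIF11, SMC2, and NCAPD2. Of each other list, up to 4 DE genes with the smallest P-values are named. Values in every library for some of these and for further members were added after they had been seen. Promoters were shown for the up to 3 genes with the smallest P-values in each direction that had an entry, and for CDK1 and CCNB1. Alternatives were pseudocounts of 1 and 0.01, no filter, a minimum mean FPKM of 1, unscaled FPKM as deposited, quantile normalization, TPM, no intensity trend, robust estimation, a replicate block, voom on whole reads, and leaving out each replicate, and, chosen after seeing the data, length and GC correction.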

Additional observations from a re-analysis of the deposited data

How the results depend on the processing

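All 10 DE genes among the mitosis and G2/M genes, picked from the same libraries, kept their direction in the 13 alternatives and the 6 fits that left out 1 replicate. In each of these settings, 43 to 57 of all 57 genes did so. The number of DE genes among the 57, 10 in the analysis reported, was 2 without a filter on low values, with 524 DE genes over all tested genes instead of 1792. It was also 2 without the intensity trend, with 852 in all (*UBE2C* and *TTK*). It was 17 with TPM, with 2770 in all, 16 with voom on whole reads, with 2817 in all, and 23 with GC correction, with 3244 in all. The median log2(FC) of the 57 genes was -0.0765 with FPKM as deposited, -0.0795 after quantile normalization, and -0.199 with TPM. Leaving out 1 replicate at a time gave 0 to 20 DE genes among the 57, 69 to 3495 over all tested genes, and medians of -0.0146 to 0.074. In these fits a group of 2 replicates shares the spread estimated from the other group. The cause was not tested. With the replicate number as a replicate block, 12 of the 57 and 1610 genes in all were DE genes, *CDK1*, *AURKB*, and *SMC4* being added and *BIRC5* lost. Whether equal numbers mark paired samples is not given in the sources used here. Deviations of control and case replicates of the same number correlated across genes at 0.0634, 0.0999, and -0.0535. Those of unlike number correlated at -0.1816 to 0.1169. With 3 replicates per group, these values cannot settle whether the samples were paired. The exact permutation test of 3 against 3 has a smallest two-sided P-value of 0.1 and was not used for single genes.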

Other observations

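Genes of DNA replication, the step of the cycle before G2, were compared as a list of 30, all tested. 3 were upregulated and none downregulated (10%, beside 13.2% of all tested genes, of which 7.34% were upregulated), with a median log2(FC) of 0.09. *RFC4*, a subunit of the clamp loader, was at 23.6, 21.8, and 21.9 FPKM in control replicates 1, 2, and 3 and at 26.3, 28.96, and 31.9 FPKM in case replicates 1, 2, and 3 (log2(FC) = 0.45, SE 0.09, adjusted P-value = 0.0214) by limma. *CDC45*, part of the replicative helicase, was at 33.6, 32.5, and 30.3 FPKM and at 38.9, 37.9, and 39.3 FPKM (log2(FC) = 0.35, SE 0.08, adjusted P-value = 0.0309). *GINS3*, of the same helicase, was at 3.22, 3.56, and 3.46 FPKM and at 4.13, 4.16, and 4.79 FPKM (log2(FC) = 0.42, SE 0.10, adjusted P-value = 0.0379). Case values exceeded control values in all 3 genes.

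The following were chosen after their values were seen. *UBE2S*, at 166.3, 150.5, and 282.6 FPKM in the control group and 358.9, 189.97, and 203.5 FPKM in the case group, was highest within its groups in control replicate 3 and case replicate 1. The keratin *KRT7* was highest in the same libraries, at 305.8, 272.97, and 407.2 FPKM and 390.95, 241.4, and 229.99 FPKM. In the study's read statistics, control replicate 3 and case replicate 1 also had the largest shares of adapter reads. Whether this bears on the values, and whether other genes follow this order, was not tested.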
